A study of Mus musculus with 3 samples.

Results

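The cortical projection neuron layer genes are 8 genes used to mark excitatory neurons of single or adjacent layers of the cerebral cortex, or the excitatory lineage as a whole. They are Tbr1, Fezf2, Rorb, Cux2, Lamp5, Foxp2, Neurod6 and Etv1, and some are also made by other cells, as given below. They were chosen by name, each has 1 row among the 16610 genes of the deposited table, and all 8 were among the 14906 genes with a mean of at least 20 normalised read counts over the libraries.

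The libraries held ribosome-bound RNA of mouse brain, taken from the middle part of a hemisphere and purified with the RiboTag method, which tags a ribosomal protein in chosen cells and pulls down those ribosomes together with the mRNA on them. There was 1 library per group, and each pooled 3 animals. The groups were the left hemisphere of animals with middle cerebral artery occlusion (MCAO, a stroke model in which a brain artery is blocked) for 1 h, the right hemisphere of MCAO animals (contralateral), and the right hemisphere of animals without MCAO (control), all killed after 3 days. The series title speaks of astrocytes, but the labels give no driver line, strain, age or sex. No left hemisphere without MCAO was analysed here, so side and occlusion cannot be told apart.

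Projection neurons of the cortex send their axons to other cortical areas or to deeper brain regions, and the layer in which such a neuron lies goes with its targets. Transcription factors that are restricted to certain layers set and maintain these classes during development. Several of them stay on in the adult cortex, where they serve as layer markers. The cortex and the underlying striatum both lie in the territory of the middle cerebral artery.

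Promoter windows give the sequence upstream of annotated starts. In the RefSeq table for GRCm38.p6, the assembly also called mm10, 7 of the 8 members had 1 or more windows, 11 in all, and Foxp2 had none. The windows printed are the 250 bases before the first start the table lists for the member with the largest contralateral difference (Tbr1), of a member with a typical one (Rorb) and of the member with the smallest (Neurod6). They lie at chr2:61804203-61804452 on the plus strand, at chr19:19111197-19111446 on the minus strand and at chr6:55681264-55681513 on the minus strand, and are written 5′ to 3′ along the gene. The Rorb and Neurod6 windows end next to the annotated gene span given below, whereas the start used for Tbr1 lies inside the span of that gene, whose outer end is set by another transcript. Capitals mark matches to CANNTG, the E-box bound by basic helix-loop-helix proteins, and to TAATTA, a core bound by homeodomain proteins. Both motifs read the same way on either strand, and no match of one overlapped a match of the other.
Tbr1: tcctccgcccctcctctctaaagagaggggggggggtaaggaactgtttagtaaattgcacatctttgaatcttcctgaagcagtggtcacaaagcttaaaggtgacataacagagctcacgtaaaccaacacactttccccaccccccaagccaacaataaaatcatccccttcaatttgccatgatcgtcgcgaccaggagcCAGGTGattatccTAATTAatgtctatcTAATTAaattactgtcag
Rorb: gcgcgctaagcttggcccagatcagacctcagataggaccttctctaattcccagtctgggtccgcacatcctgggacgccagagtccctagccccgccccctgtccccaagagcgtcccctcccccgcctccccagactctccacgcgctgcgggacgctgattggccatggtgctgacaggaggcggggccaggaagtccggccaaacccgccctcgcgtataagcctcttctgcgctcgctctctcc
Neurod6: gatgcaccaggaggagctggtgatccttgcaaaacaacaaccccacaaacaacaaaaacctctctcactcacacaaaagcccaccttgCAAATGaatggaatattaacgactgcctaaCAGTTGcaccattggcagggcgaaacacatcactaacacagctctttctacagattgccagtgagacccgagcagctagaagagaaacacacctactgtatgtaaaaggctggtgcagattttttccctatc
The Tbr1 window held 2 TAATTA matches and 1 E-box, the Neurod6 window held 2 E-boxes and no TAATTA, and the printed Rorb window held neither. A second Rorb window, before an internal start (chromosome 19, 19001118 to 19001367), held 2 E-boxes, so the content depends on the start chosen. Among 32851 windows of the same length in the table, 66.2% held an E-box and 4.84% held TAATTA. The base composition differed as well. G and C made up 45.2% of the Tbr1 window, 66.0% of the printed Rorb window and 46.0% of the Neurod6 window, with 5, 18 and 3 CpG dinucleotides, against medians of 52.4% and 6 over all windows. The second Rorb window had 39.2% and 4. A match is a run of letters and not a bound site.

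All 8 members were highest in the control library, and the MCAO and contralateral libraries lay close to each other for most of them. Over all 14906 genes, 38.0% had their highest value in the control. Against the control, the MCAO hemisphere was at 0.731 to 0.881 times the level and the contralateral hemisphere at 0.626 to 0.975 times. No member differed 2-fold in any comparison. The 2 comparisons with the control share that library, so they are not independent. In pulled-down RNA such as this, fewer cells of a type, less RNA per cell and a different yield of the pull-down cannot be told apart. Ratios are given with their 95% counting intervals, which come from the reads behind each value and hold no variation between animals, since there was no replicate library.

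**Figure D1:**
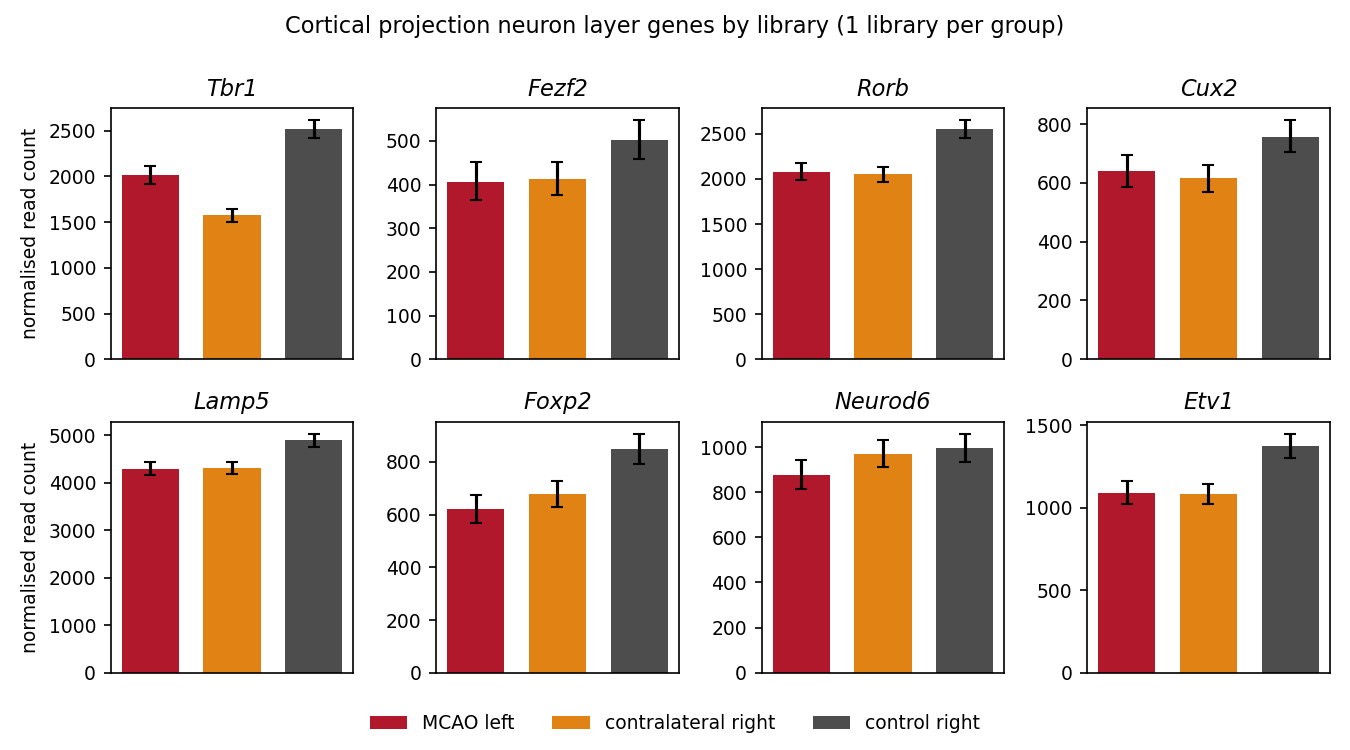
Normalised read count of each member (vertical axis, starting at 0) in the MCAO left, contralateral right and control right library, 1 library per bar, with 95% Poisson counting intervals. In every panel the control bar is the highest, and Tbr1 is the member whose contralateral bar, at 1573, stands well below its MCAO bar, at 2011.

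Among the deep-layer members, Tbr1 varied most between libraries. Tbr1, a T-box transcription factor of layer 6 neurons that project to the thalamus (chromosome 2, 61802863 to 61814114), had 2011 normalised read counts in the MCAO hemisphere, 1573 in the contralateral hemisphere and 2514 in the control. The contralateral library was thus the low one. Its ratio to the control was 0.626 (0.589 to 0.665), a log2 difference of -0.67 at the 1.35th percentile of all genes. The MCAO hemisphere was at 0.80 times the control (0.752 to 0.851) and at 1.28 times the contralateral level (1.20 to 1.37). In the contralateral hemisphere against the control, 1 of the 8 members, Tbr1, was at least 1.5-fold lower, as were 2.25% of all genes.

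Foxp2, a forkhead transcription factor of layer 6 that is also made by striatal projection neurons (chromosome 6, 14901349 to 15441977), had 620 normalised read counts in the MCAO hemisphere, 677 in the contralateral hemisphere and 847 in the control. Its ratio of the MCAO hemisphere to the control, 0.731 (0.655 to 0.816) at the 9.43rd percentile, was the lowest among the members. Relative to genes of like genomic span, a comparison described below, its log2 difference was -0.25 in place of -0.45, and Tbr1, at -0.37, was then the lowest. Both hemispheres of the MCAO animals were below the control, and the MCAO value lay within counting error of the contralateral one, with a ratio of 0.916 (0.818 to 1.02).

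The layer 5 markers followed a common course. Fezf2, a zinc finger factor that directs neurons to project to the brainstem and spinal cord (chromosome 14, 12338992 to 12346803), had 407 normalised read counts in the MCAO hemisphere, 412 in the contralateral hemisphere and 502 in the control. Etv1, an ETS-family transcription factor (chromosome 12, 38780082 to 38870483), had 1090, 1085 and 1375 in the same order. For both genes the 2 hemispheres of the MCAO animals were nearly level and the control stood above them. The MCAO to control ratio was 0.811 for Fezf2 (0.706 to 0.931) and 0.793 for Etv1 (0.729 to 0.862). Between the MCAO and contralateral hemispheres the ratios were 0.989 (0.858 to 1.14) and 1.00 (0.922 to 1.10).

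Both upper-layer transcription factors among the members were also lower than the control in the other libraries. Rorb, a nuclear receptor of layer 4 neurons that is also made by astrocytes and thalamic neurons (chromosome 19, 18930609 to 19111196), had 2080 normalised read counts in the MCAO hemisphere, 2050 in the contralateral hemisphere and 2550 in the control. Cux2, a homeodomain factor of layers 2 to 4 (chromosome 5, 121857962 to 122050415), had 640, 615 and 757 in the same order. The MCAO to control ratio was 0.816 for Rorb (0.767 to 0.867) and 0.845 for Cux2 (0.756 to 0.944), and the contralateral to control ratios were 0.804 (0.760 to 0.851) and 0.812 (0.732 to 0.90). The MCAO and contralateral libraries were again close, at 1.01 (0.953 to 1.08) for Rorb and 1.04 (0.928 to 1.17) for Cux2.

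Lamp5, a membrane protein of the lysosome-associated family made by superficial projection neurons and by neurogliaform interneurons (chromosome 2, 136052025 to 136069917), had 4291 normalised read counts in the MCAO hemisphere, 4309 in the contralateral hemisphere and 4887 in the control. It had the most reads of the members and hence the narrowest intervals. The 3 values lay close together, with ratios to the control of 0.878 (0.841 to 0.916) for the MCAO hemisphere and 0.882 (0.848 to 0.917) for the contralateral hemisphere. The ratio between them was 0.996 (0.954 to 1.04).

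Neurod6, a basic helix-loop-helix factor shared by excitatory neurons of cortex and hippocampus (chromosome 6, 55677818 to 55681263), was the member that differed least from the control in the contralateral library. It had 877 normalised read counts in the MCAO hemisphere, 971 in the contralateral hemisphere and 996 in the control. Here the MCAO library was the low one, at 0.881 times the control (0.801 to 0.969) and 0.904 times the contralateral level (0.823 to 0.993). The contralateral to control ratio was 0.975, and its interval of 0.895 to 1.06 held 1.

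**Figure D2:**
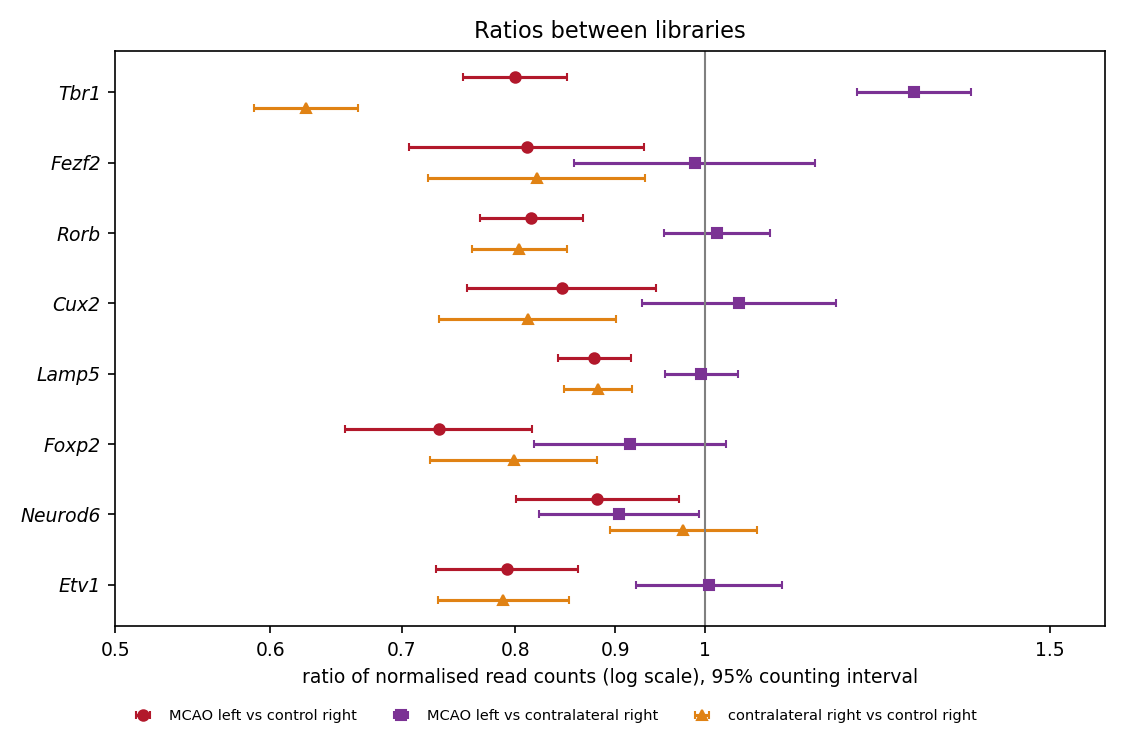
Ratio of normalised read counts between libraries (horizontal axis, log scale) for each member, with 95% counting intervals, for the MCAO left hemisphere against the control right (circles), the MCAO left against the contralateral right (squares) and the contralateral right against the control right (triangles). The squares lie around 1 except that of Tbr1 at 1.28, and the circles lie between 0.731 and 0.881.

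In the MCAO hemisphere the counting interval of the ratio to the control lay below 1 for 8 of 8 members, where it did so for 29.9% of all genes. In the contralateral hemisphere it lay below 1 for 7 of 8, against 29.4%. Between the MCAO and contralateral hemispheres it held 1 for 6 of 8, lay above 1 for Tbr1 (25.6% of all genes) and below 1 for Neurod6 (25.4%). Whether an interval leaves out 1 depends on the reads behind a gene, and these shares of all genes were not matched for abundance. The 2-fold threshold on the log2(value + 5) scale was passed by none of the members. As background, 4.12% of the 14906 genes passed it upwards and 1.25% downwards in the MCAO hemisphere against the control, and 3.18% and 4.96% against the contralateral hemisphere. In the contralateral hemisphere against the control these shares were 5.17% and 0.362%. Set against both right hemispheres together, the MCAO hemisphere had 2.58% of all genes past the threshold upwards and 0.517% downwards.

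The members' median log2 difference was -0.30 for the MCAO hemisphere against the control, 0.00 for the MCAO hemisphere against the contralateral one, and -0.31 for the contralateral hemisphere against the control. Over all genes each of these medians was 0.00. With libraries scaled by the geometric mean of 12 neuron genes without regional restriction, the members' median of the MCAO hemisphere against the control was -0.18. That of all genes was then 0.10. Without Tbr1 the 7 other members ranged between -0.34 and -0.04 in the contralateral comparison and between -0.14 and 0.06 in the comparison of the MCAO and contralateral hemispheres. Ratios of 2 members within a library do not depend on the scaling of libraries. Tbr1 relative to Lamp5 was at 0.911 times its control value in the MCAO hemisphere and at 0.71 times in the contralateral hemisphere, whereas Rorb relative to Lamp5 was at 0.929 and 0.912 times. Relative to Neurod6, Tbr1 was at 0.908 and 0.642 times and Rorb at 0.925 and 0.825 times. How far Rorb differed between the hemispheres thus depended on the gene it was set against.

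Against the control, the other genes of cortical layers had medians of the same sign as the members in both hemispheres of the MCAO animals. The control held the highest value for 7 of 14 upper-layer and 13 of 19 deep-layer genes, where it did for 8 of 8 members and 38.0% of all genes. The genes named from these lists have the largest MCAO differences from the control, and all were lower in the MCAO hemisphere. The MCAO hemisphere had lower values than the control for 9 of 14 other upper-layer genes and higher values for 5 (median -0.24). Of the 14 genes, 1 was 2-fold lower. This was Inhba, encoding a subunit of activin, with 7.06 normalised read counts in the MCAO hemisphere, 26.6 in the contralateral hemisphere and 33.9 in the control, so that few reads stood behind it. Kcnh5, a potassium channel gene, had 111, 123 and 166 in the same order, and Rora, a nuclear receptor gene related to Rorb, had 3004, 2980 and 3911. Mdga1, encoding a cell-surface protein of layers 2 and 3, had 694, 943 and 941, so here the MCAO library alone was low.

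For 16 of 19 other deep-layer genes the MCAO value was below that of the control, and for 3 it was above. The median of the 19 was -0.25, and none was 2-fold lower on the log2(value + 5) scale. Against the contralateral hemisphere 14 were lower, with a median of -0.10. The synaptotagmin gene Syt6 had 528 normalised read counts in the MCAO hemisphere, 783 in the contralateral hemisphere and 1056 in the control. Parm1 had 269, 398 and 437 in the same order. Both genes, unlike the layer 5 and 6 members, were well below the contralateral value in the MCAO library, with ratios of 0.675 (0.601 to 0.757) and 0.676 (0.574 to 0.795). Bcl11b, a transcription factor of layer 5 neurons and of striatal projection neurons, had 2156, 2693 and 3351, and Deptor, encoding an inhibitor of mTOR signalling, had 575, 556 and 769.

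Genes shared by forebrain excitatory neurons were split. Of 12 such genes other than the members, 8 were lower and 4 higher in the MCAO hemisphere against the control (median -0.06), and none differed 2-fold. Against the contralateral hemisphere 10 were higher, with a median of 0.10. Slc17a7, the vesicular glutamate transporter of cortical neurons, had 33556 normalised read counts in the MCAO hemisphere, 28415 in the contralateral hemisphere and 41540 in the control. Its order of libraries was that of Tbr1. Rorb, Cux2 and Etv1 had the same order, but their MCAO and contralateral values lay within counting error of each other. Neurod1, a relative of Neurod6, had 431, 386 and 328, and Nrn1, encoding neuritin, had 3799, 3780 and 3046, so that the control was their lowest library.

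Striatal genes showed what a large difference looked like in the same libraries. Of 11 genes of striatal projection neurons, 9 were at least 2-fold lower in the MCAO hemisphere than in the control and 8 than in the contralateral hemisphere, with medians of -1.56 and -1.25. Adora2a, an adenosine receptor gene, had 389 normalised read counts in the MCAO hemisphere, 1694 in the contralateral hemisphere and 2140 in the control, and Drd2, a dopamine receptor gene, had 185, 761 and 951. Foxp2 and Bcl11b, which striatal neurons also make, were lower in the MCAO hemisphere than in the control by -0.45 and -0.63 on the log2 scale. The median of the striatal list in the contralateral hemisphere against the control was -0.31, equal at this precision to that of the members. The part of striatal RNA in the values of Foxp2 was not tested.

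**Figure D3:**
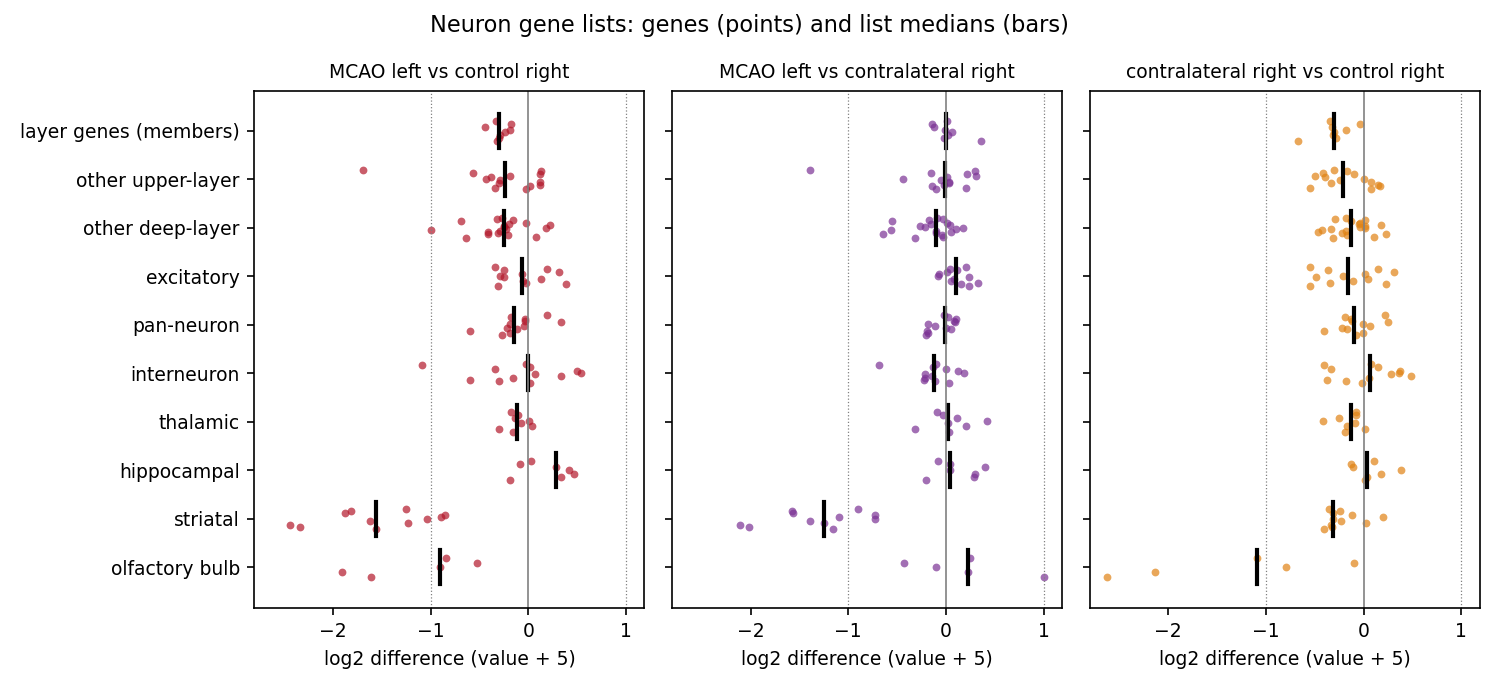
Log2 difference of value + 5 (horizontal axis) for each gene of 10 neuron lists (points) with the list medians (black bars), for the MCAO left against the control right, the MCAO left against the contralateral right, and the contralateral right against the control right hemisphere; dotted lines mark 2-fold. The members' points cluster at medians of -0.30, 0.00 and -0.31, while the striatal list lies at -1.56 and -1.25 in the comparisons of the MCAO hemisphere.

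Olfactory bulb genes were also lower than the control, with larger median differences than the members. This list was chosen with earlier results of these data known, so its direction is not an independent result. Its median for the MCAO hemisphere against the contralateral one was 0.23. For Th, the interval of the contralateral to control ratio, 0.829 to 1.05, held 1. Tbr1 is known in the projection neurons of the olfactory bulb as well as in cortex. All 5 genes of 6 that passed the filter were lower than the control in both hemispheres of MCAO animals, with medians of -0.90 for the MCAO hemisphere and -1.09 for the contralateral one. Their summed level was 1013 in the MCAO hemisphere, 1141 in the contralateral hemisphere and 1894 in the control. Eomes, a T-box gene of those projection neurons, had 28.2, 11.5 and 96.9 in the same order, and Doc2g, a gene of the same cells, had 51.8, 43.5 and 207. Cdhr1, at 500, 539 and 938, and Th, at 363, 490 and 524, were instead lowest in the MCAO library. Tbx21, a further T-box gene of these cells and below the filter, had 5.88, 2.66 and 29.1, and no gene of the list was at 0. The part of olfactory bulb tissue in the members' values was not tested.

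Other neuron lists gave the wider setting. Of 12 neuron genes without regional restriction, 10 were lower in the MCAO hemisphere relative to the control (median -0.15), and the contralateral median was -0.10. The medians of 12 interneuron genes were -0.01 and 0.07, and those of 8 thalamic genes -0.12 and -0.13, against the control in both cases. Sv2c, a synaptic vesicle protein gene, had 127, 207 and 275 in the MCAO, contralateral and control libraries, and Slc32a1, the vesicular GABA transporter, had 2410, 2828 and 3659. The thalamic genes Lef1 and Ntng1 had 115 and 1567 in the MCAO hemisphere, 145 and 1676 in the contralateral hemisphere, and 143 and 1770 in the control.

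Transcripts of non-neuronal cells were present in all libraries. The summed level of 12 astrocyte genes was 468620 in the MCAO hemisphere, 528524 in the contralateral hemisphere and 520976 in the control, and their median log2 differences from the control were -0.01 and 0.07. The summed level of the 12 neuron genes without regional restriction was 265349 in the MCAO hemisphere, 269575 in the contralateral hemisphere and 289509 in the control. Neuronal transcripts were thus present in a pull-down whose title names astrocytes, and the cells that gave the members' transcripts were not identified. Endothelial genes were lower in the contralateral library too. For 6 of 7 the contralateral value was below that of the control (median -0.40), and their summed level was 848 in the MCAO hemisphere, 530 in the contralateral hemisphere and 699 in the control. Of 9 oligodendrocyte genes, 7 were lower in the contralateral library relative to the control (median -0.10), with summed levels of 162527, 108184 and 129438 in the same order. No gene of these lists was at 0. In the MCAO hemisphere against the control both medians were positive, at 0.17 and 0.19. The summed level of 11 microglia genes was 29880 in the MCAO hemisphere against 10066 in the contralateral hemisphere and 9919 in the control. That of 8 male germ cell genes was 21.0 in the MCAO hemisphere, 8713 in the contralateral hemisphere and 30.1 in the control, so the contralateral library, on which 2 of the comparisons rest, held transcripts that the others had at or near 0. Their part in the members' values was not tested.

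The span of a gene, its length in the genome with introns, went with its difference from the control. Over the 14311 genes past the filter with an annotated span, the median log2 difference of the contralateral hemisphere from the control was 0.18 for 1755 genes of up to 5000 bases and -0.15 for 896 genes over 200000 bases. For the MCAO hemisphere these medians were 0.17 and -0.20, with values in between for the classes in between. Neurod6 spans 3446 bases, and Foxp2, with 540629 bases, is the longest member. Set against the median of its own span class, the MCAO hemisphere was at -0.37 for Tbr1, -0.35 for Neurod6, -0.34 for Fezf2, -0.25 for Etv1 and Foxp2, -0.23 for Lamp5, -0.15 for Rorb and -0.10 for Cux2 relative to the control. By the same measure Neurod6 was at -0.21 in the contralateral hemisphere, close to Rorb at -0.22, Cux2 at -0.20 and Lamp5 at -0.22, while Tbr1 remained the lowest at -0.71. The median over the 8 members was -0.25 for the MCAO hemisphere and -0.22 for the contralateral hemisphere by this measure. The span comparison was added after the values were seen, and no cause of the trend was tested.

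**Figure D4:**
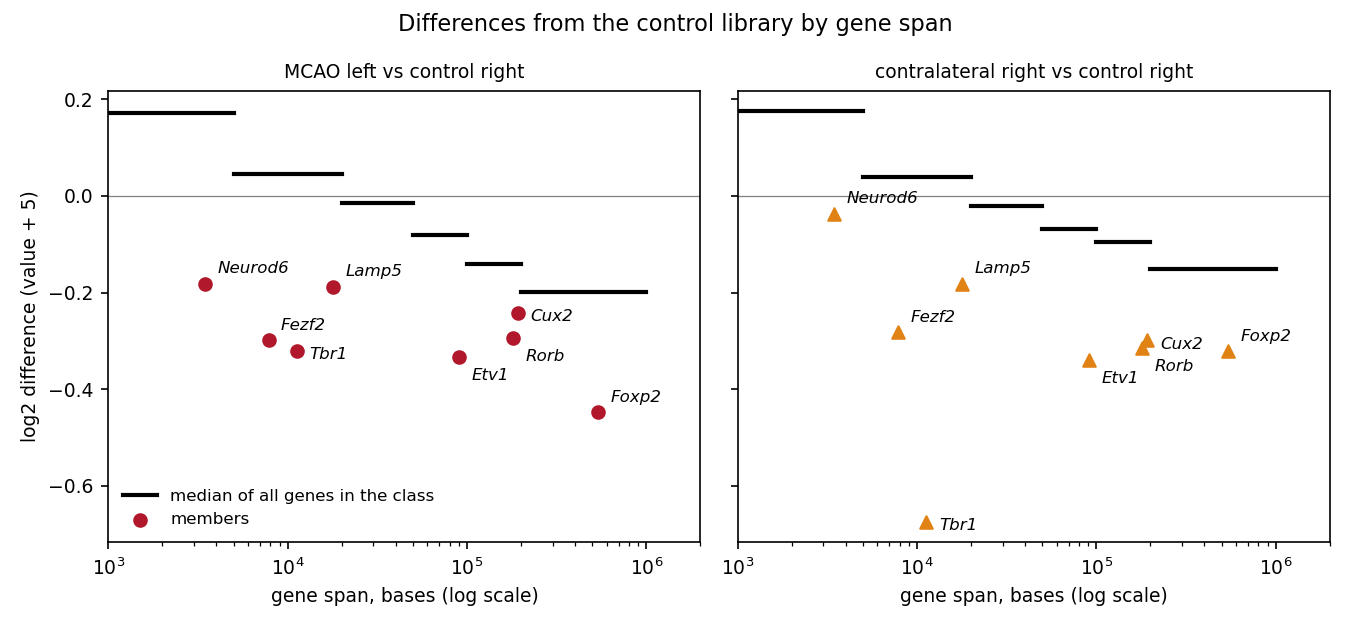
Log2 difference of value + 5 from the control (vertical axis) against gene span in bases (horizontal axis, log scale) for the MCAO left hemisphere, on the left, and the contralateral right hemisphere, on the right; black lines are medians of all genes in 6 span classes, and symbols are the 8 members. The lines descend between 0.17 and -0.20 on the left, and all members lie below the line of their class.

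Genes with values like those of a member were counted among genes of like abundance. For Rorb, 471 of 4189 genes with a mean within 2-fold of its own lay within a distance of 0.1 on the centred log2 scale over the 3 libraries, the closest being Ago1, with 2907 normalised read counts in the MCAO hemisphere, 2861 in the contralateral hemisphere and 3563 in the control, and Fam84a. Tbr1 had few such genes, 6 of 4342. The closest were Tspan2, with 3076, 2295 and 3746 in the same order, and Dennd5b, with 1829, 1525 and 2323. The closest pairs for the other members were Zfp950 and Ptpn21 for Fezf2, Cemip and Fzd2 for Cux2, Otub1 and Fndc5 for Lamp5, Foxn2 and Thrb for Foxp2, Pcdhga3 and Nwd2 for Neurod6, and B230354K17Rik and Rsbn1l for Etv1. With 3 libraries such closeness describes these libraries and no more.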

How the data were processed

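RNA bound to tagged ribosomes was measured in 3 libraries, 1 per group. The deposited table gives a signal per gene, which the authors deposited after dividing each library's reads by its own size factor, with values below 1 listed as 1. The build mm10 and the tools DESeq2, R 3.3.1, Partek 6.6, HISAT2 2.0.11 and CASAVA 1.8 are named, without roles, per the submitters' processing notes. The series design states pools of 3 animals and 2 technical replicates. Strandedness is not given in the sources used here, so antisense or overlapping reads may be mixed in.

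The value of 1 read was found per column (1.18, 0.887 and 0.969 normalised read counts for the MCAO, contralateral and control libraries), and 99.9% of values above 1 were whole within 0.1 read. The totals were 25930258, 33886604 and 31833456 reads. No p-value was computed, since each group had 1 library. Differences were taken as log2(value + 5), which understates those of low genes, where the mean over libraries reached 20, and counted at 2-fold. Ratios are of the values without the pseudocount, with 95% intervals by the exact Clopper-Pearson method on the reads found in this way. The intervals cover counting error only, because each group had 1 library. No molecular identifiers are recorded and several reads can stem from 1 molecule, so the intervals may be too narrow even for that error. Gene spans and coordinates came from RefSeq for GRCm38.p6, in which 15912 of 16610 symbols were found. The procedure was run on simulated reads that held counting error only and changes larger than those of the members. That run does not bear on variation between libraries.

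The members and the 14 other gene lists were chosen with earlier results of these data known. All members are described. Of the other lists, the 4 or 2 genes with the largest MCAO difference from the control were named, and the genes most like a member by the distance of their centred log2 values. Some genes of this rule are not reported here. Tbx21, Cdhr1, Th and the genes of the closing observations were named after their values were seen. Analyses used Python 3.11.15, numpy 2.4.6, pandas 2.3.3 and scipy 1.17.1.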

Additional observations from a re-analysis of the deposited data

How the results depend on the processing

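The counts and medians over the members were recomputed under 9 alternatives, 3 of them chosen after seeing the data. These were pseudocounts of 1 and 20, no filter on low values, scaling by total reads, scaling by the geometric mean of the neuron list, a 1.5-fold threshold, scaling without genes higher in the contralateral library, the difference from the gene's span class, and the members without Tbr1. The number of members past the threshold stayed at 0 in each comparison, except that at 1.5-fold it was 1, Tbr1, in the contralateral hemisphere against the control. The median of the MCAO hemisphere against the control, -0.30, ranged between -0.30 and -0.18, and the -0.18 came from scaling by the neuron list, a move of over 1.5 times, with Lamp5 at -0.08 and Rorb at -0.18. The median of the contralateral hemisphere against the control ranged between -0.31 and -0.22, and that of the MCAO hemisphere against the contralateral one between -0.03 and 0.05. These moves were within the median counting error of a single member. A change of scaling shifts all members together, so that error cannot show whether such a move is small. Of the members' single differences, 6 of 63 for the MCAO hemisphere and 4 of 63 for the contralateral hemisphere, both against the control, moved by more than that member's own counting error. Part of the 63 could not move, because leaving out the filter or Tbr1 does not change the difference of a single gene. Neurod6 in the contralateral hemisphere against the control changed sign, to 0.03 under scaling by the neuron list. It was at 0.006 under scaling without genes higher in the contralateral library. Scaling by the neuron list itself moved the median of all genes to 0.06 in this comparison and to 0.10 for the MCAO hemisphere against the control. Against the contralateral hemisphere 6 of 63 single differences, all near 0, changed sign. With 1 library per group, variation between animals, dissection and pull-down has no measure here, and depth limits only the precision of counting. No paired analysis was possible because each group had 1 library.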

Other observations

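Hippocampal neuron genes were mostly higher in the MCAO hemisphere relative to the control. Of 7 such genes, 5 were higher in the MCAO hemisphere relative to the control (median log2 difference 0.29), and none differed 2-fold. The medians were 0.04 for the MCAO hemisphere against the contralateral one and 0.04 for the contralateral hemisphere against the control, and no difference from the cortical layer genes was tested. Dsp, encoding desmoplakin and made by granule cells of the dentate gyrus, had 403 normalised read counts in the MCAO hemisphere, 328 in the contralateral hemisphere and 290 in the control. Fibcd1, a gene of CA1 neurons, had 1117, 1089 and 837 in the same order, while Prox1, a transcription factor of dentate granule cells, had 211, 244 and 241. These genes were named after their values were seen.

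The 12 interneuron genes were split, with 6 higher and 6 lower in the MCAO hemisphere relative to the control, and 4 of them, Gad2, Slc32a1, Reln and Sv2c, had their highest value in the control. The genes given here were named after their values were seen. Vip had 569 normalised read counts in the MCAO hemisphere, 502 in the contralateral hemisphere and 389 in the control, and Npy had 1034, 948 and 733. Sst had 2797, 3092 and 2211. Gad1, which makes GABA, was nearly level at 12470, 12193 and 12304.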
